A study of Homo sapiens with 12 samples.

Results

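The genes PLEKHA1, PLEKHA2, SLC30A9, AKTIP, MAN2A1 and DRAM1 were read on 12 microarrays (Illumina Human HT-12 v4) and were chosen by the values reported here, the fall of their signals with an siRNA against PRKCD in both breast cancer cell lines of the study. They are 6 of the 11459 genes tested and are read by 12 of the 47323 probes, 9 of which passed the detection filter. Since these falls chose the genes, they are given as values with their errors and without a test. PRKCD encodes PKCδ, a protein kinase C isoform. The 4 groups were BT-549 cells with siPRKCD, BT-549 cells with the control siRNA (siControl), MDA-MB-468 cells with siPRKCD and MDA-MB-468 cells with siControl, with 3 arrays each. Both are established human breast cancer lines, each a single line, and transfections follow the general protocol of 40 nM siRNA for 72 h. Insulin was added to the culture medium of BT-549 and not to that of MDA-MB-468, so line and medium cannot be told apart. A single PKCδ siRNA is described, so effects of losing PRKCD and other effects of that siRNA cannot be told apart. A legend of the study counts the replicates as experiments. What was repeated in each, such as the culture, the day or the transfection, is not given in the sources used here, so p-values measure only how these samples vary. RNA came from whole cultures, so less transcript per cell and fewer cells with the transcript cannot be told apart. The study used the PKCδ siRNA to induce cell death, and the share of dying cells in these samples is not given. The part of cell death in the values below was not tested.

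The products belong to separate cellular systems. PLEKHA1 and PLEKHA2 (TAPP1 and TAPP2) are adaptors whose pleckstrin homology domain binds a membrane lipid made downstream of PI3-kinase. SLC30A9 (ZnT9) belongs to a family of zinc transporters. AKTIP (FTS) resembles ubiquitin-conjugating enzymes without their activity, and it joins the Hook and FHIP proteins in a complex that links cargo to the motor dynein. MAN2A1 is a Golgi mannosidase that trims N-glycans on their way to the complex type. DRAM1 is a lysosomal membrane protein, known as a p53 target that modulates autophagy.

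The stretches before the transcription starts are shown as a description. The genes moved together in both lines because they were chosen for it, and whether transcription itself changed was not tested. Of the 6 genes, 4 were matched by symbol in a RefSeq promoter table of build GRCh38.p14, and PLEKHA2 and AKTIP were not. Each sequence below holds the 250 bases before the start on the + strand, which is the coding strand of all 4 genes, and capitals mark matches to 7 motifs searched on both strands. The window of PLEKHA1 was chr10:122374458-122374707. That of SLC30A9 was chr4:41990280-41990529. The MAN2A1 window lay at chr5:109689677-109689926 and the DRAM1 window at chr12:101877330-101877579.
PLEKHA1: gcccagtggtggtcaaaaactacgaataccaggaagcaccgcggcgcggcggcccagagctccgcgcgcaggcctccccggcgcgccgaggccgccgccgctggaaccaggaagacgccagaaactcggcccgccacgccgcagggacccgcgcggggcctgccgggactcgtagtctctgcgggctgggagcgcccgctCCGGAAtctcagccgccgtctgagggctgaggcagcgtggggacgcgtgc
SLC30A9: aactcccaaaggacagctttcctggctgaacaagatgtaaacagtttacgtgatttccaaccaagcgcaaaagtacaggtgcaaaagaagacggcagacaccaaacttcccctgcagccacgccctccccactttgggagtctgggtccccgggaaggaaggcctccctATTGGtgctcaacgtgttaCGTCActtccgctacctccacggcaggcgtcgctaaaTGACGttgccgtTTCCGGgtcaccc
MAN2A1: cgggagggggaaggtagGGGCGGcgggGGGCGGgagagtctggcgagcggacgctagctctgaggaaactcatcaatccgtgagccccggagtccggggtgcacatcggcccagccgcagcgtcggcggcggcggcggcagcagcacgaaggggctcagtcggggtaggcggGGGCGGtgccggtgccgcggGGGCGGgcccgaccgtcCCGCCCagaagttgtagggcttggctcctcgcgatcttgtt
DRAM1: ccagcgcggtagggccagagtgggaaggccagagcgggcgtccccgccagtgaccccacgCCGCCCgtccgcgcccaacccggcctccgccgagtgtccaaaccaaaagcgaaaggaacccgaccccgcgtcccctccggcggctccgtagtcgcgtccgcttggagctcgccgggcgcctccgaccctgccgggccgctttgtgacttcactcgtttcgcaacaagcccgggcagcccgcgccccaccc
Of all 35116 promoters with a full window in the table, 6.573% held the AP-1 motif TGANTCA, 6.567% the GAS motif TTCNNNGAA and 6.345% the E-box CACGTG. The CCAAT box (CCAAT) was found in 32.01%, the GC box (GGGCGG) in 42.64%, the ETS core (CCGGAA) in 14.53% and the CRE core (TGACG) in 21.22%. The 4 windows held no match to AP-1, GAS or the E-box and no motif common to all 4, and 0 pairs of matches overlapped. MAN2A1 held 5 GC boxes, whose first bases lay 233, 223, 78, 58 and 41 bases before the start. DRAM1 held 1 GC box, at 190. PLEKHA1 held 1 ETS core, at 50. SLC30A9 held 1 CCAAT match at 81, 2 CRE cores at 62 and 25, and 1 ETS core at 13. The G and C content was 74.0% in PLEKHA1, 73.2% in MAN2A1, 73.2% in DRAM1 and 55.2% in SLC30A9, beside a median of 58.0% over all promoters. A match is a string of letters, and no binding was measured.

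All levels below are quantile-normalised log2 signals, and a difference of 1 on this scale is a doubling. The targeted gene was checked first. PRKCD (ILMN_1801105) had signals of 6.89, 6.67 and 7.01 in BT-549 siPRKCD cells, against 7.71, 7.73 and 7.76 in BT-549 siControl cells, with 1 of the 3 siPRKCD arrays above the detection limit. In MDA-MB-468, it had 7.29, 7.20 and 7.47 in siPRKCD cells and 9.15, 9.13 and 8.82 in siControl cells. PRKCD thus fell on the arrays labelled siPRKCD of both lines, by 0.87 in BT-549 (SE 0.11, limma adjusted p = 5.3e-05), and fell by 1.72 in MDA-MB-468 (SE 0.11, adjusted p = 6.3e-08). Cell type markers differed between the lines: 7 of 8 epithelial markers were detected on every MDA-MB-468 array and 1 of 8 on every BT-549 array, while 7 of 8 mesenchymal markers were detected on every BT-549 array and 2 of 8 on every MDA-MB-468 array. Of 3 leukocyte markers annotated, CD14 was detected in both lines while PTPRC and CD3E did not pass the detection filter, nor did the endothelial markers PECAM1, CDH5 and VWF. Markers moved too: 5 of the 8 epithelial markers were lower in MDA-MB-468 siPRKCD cells (limma adjusted p under 0.05), beside 13.7% of all genes. The summed signal of the 8 was 16781 to 20444 in these cells, against 20695 to 23265 in siControl cells. In BT-549, 3 of the 7 mesenchymal markers that could be tested fell and 1 rose at this limit, beside 14.9% and 11.6% of all genes. The summed signal of the 7 was 28806 to 31475 in siPRKCD cells and 35883 to 37259 in siControl cells. CD14 fell by 1.96 in MDA-MB-468 (adjusted p = 4.2e-07). The part of these shifts in the values below was not tested.

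In both lines, the 3 siPRKCD arrays lay below the 3 siControl arrays for all 6 genes. Such a separation was found for 22.0% of all genes in BT-549, 19.7% in MDA-MB-468 and 9.02% in both. All 6 genes were called lower in both lines in the fit across all genes, where 14.9% of genes were called lower in BT-549, 13.7% in MDA-MB-468 and 5.67% in both. The choice of the genes fixed these counts. The median log2 fold change of the 6 genes was -1.02 in BT-549 cells and -1.27 in MDA-MB-468 cells, beside -0.009 and 0.003 over all genes. Levels of different probes are not set against each other, since probes differ in brightness.

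**Figure D1:**
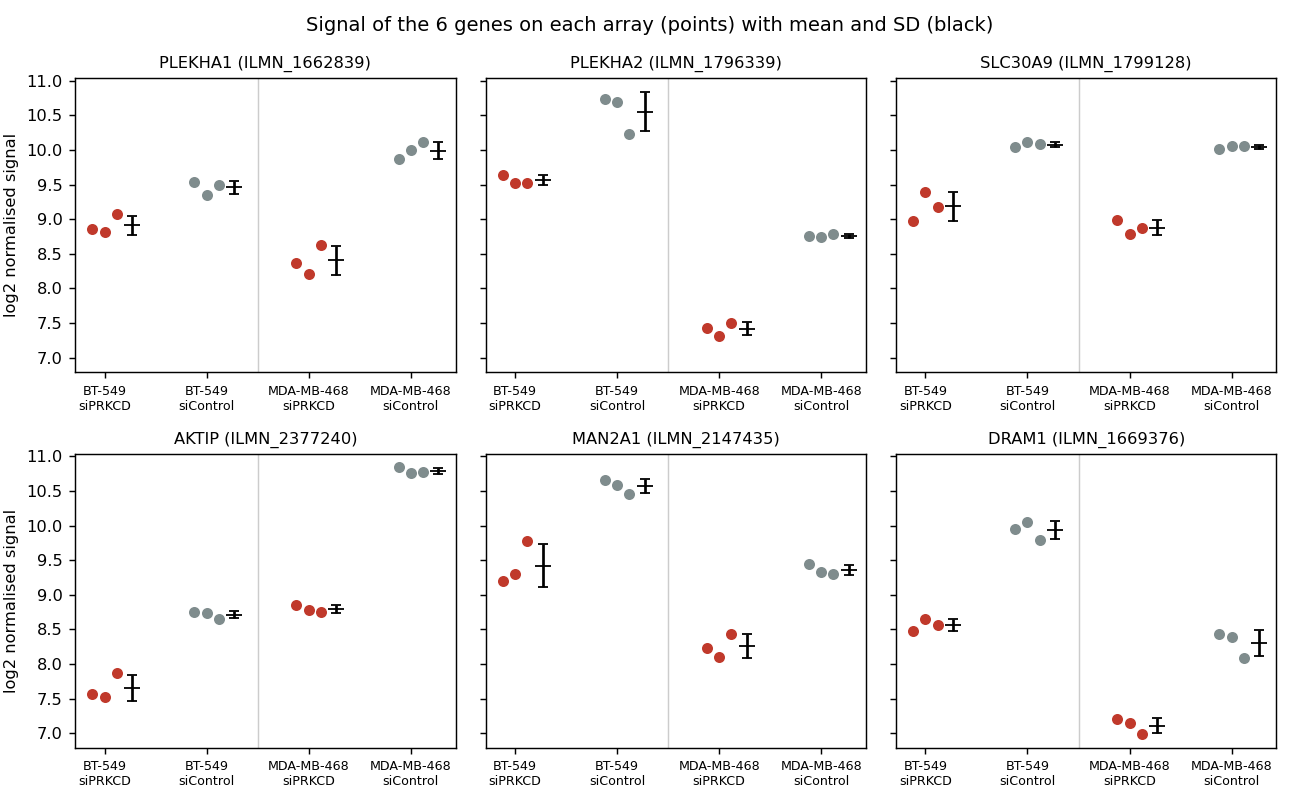
Quantile-normalised log2 signal (vertical axis) of the 6 genes on each of the 12 arrays, read from the brightest detected probe. Points are single arrays (red siPRKCD, grey siControl), and black bars give the mean and SD of 3 arrays. In each line and for each gene, the 3 siPRKCD points sit below the 3 siControl points.

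The TAPP adaptors fell in both lines, and PLEKHA1 fell by more in MDA-MB-468 than in BT-549. PLEKHA1 (ILMN_1662839, annotated to NM_001001974) had signals of 8.86, 8.82 and 9.07 in BT-549 siPRKCD cells, against 9.53, 9.35 and 9.49 in siControl cells. In MDA-MB-468, they were 8.37, 8.21 and 8.63 in siPRKCD cells and 9.87, 9.999 and 10.11 in siControl cells. The groups did not overlap in either line. The log2 fold change of PLEKHA1 was -0.55 in BT-549 (SE 0.11), with 68.5% of the siControl signal left, and -1.59 in MDA-MB-468 (SE 0.11), with 33.3% left. The fall in BT-549 was the smallest of the 12 falls of the 6 genes and ranked 713 among all genes of that line, while the fall in MDA-MB-468 ranked 26. The difference of the falls, BT-549 minus MDA-MB-468, was 1.04 (SE 0.16). The order of the lines was opposite with and without PKCδ siRNA: PLEKHA1 was higher in BT-549 among the siPRKCD arrays and higher in MDA-MB-468 among the siControl arrays, with no overlap in either case.

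PLEKHA2 (ILMN_1796339, NM_021623) had signals of 9.64, 9.52 and 9.52 in BT-549 siPRKCD cells, against 10.74, 10.70 and 10.23 in siControl cells. In MDA-MB-468, they were 7.43, 7.32 and 7.50 in siPRKCD cells and 8.75, 8.74 and 8.79 in siControl cells. The third siControl array of BT-549 lay below the other two but above every siPRKCD array. The log2 fold change of PLEKHA2 was -0.99 in BT-549 (SE 0.12), with 50.3% left, and -1.34 in MDA-MB-468 (SE 0.12), with 39.4% left. The difference of the falls was 0.35 (SE 0.17), and with a background correction (neqc), under which the falls of PLEKHA2 were -1.08 in BT-549 cells and -2.01 in MDA-MB-468 cells, it was 0.93.

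SLC30A9 had close siControl levels in the lines and was lower with siPRKCD in each. Its only probe (ILMN_1799128) had signals of 8.98, 9.39 and 9.18 in BT-549 siPRKCD cells and 10.04, 10.11 and 10.08 in siControl cells. In MDA-MB-468, they were 8.99, 8.78 and 8.87 in siPRKCD cells and 10.01, 10.06 and 10.06 in siControl cells. The siControl arrays of both lines were tightly grouped, and the siPRKCD arrays spread more widely, most in BT-549. The log2 fold change of SLC30A9 was -0.89 in BT-549 (SE 0.10), with 53.9% left, and -1.17 in MDA-MB-468 (SE 0.10), with 44.6% left, a difference of 0.27 (SE 0.14).

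AKTIP had the largest fall of the 6 genes in MDA-MB-468. Its brighter probe (ILMN_2377240, NM_001012398) had signals of 7.57, 7.53 and 7.87 in BT-549 siPRKCD cells and 8.75, 8.73 and 8.66 in siControl cells. In MDA-MB-468, they were 8.86, 8.78 and 8.75 in siPRKCD cells and 10.84, 10.76 and 10.77 in siControl cells. The siPRKCD arrays of MDA-MB-468 thus came to the level of the BT-549 siControl arrays, just above them. The log2 fold change of AKTIP was -1.06 in BT-549 (SE 0.10), with 48.1% left, and -1.99 in MDA-MB-468 (SE 0.10), where 25.1% was left, 3.99-fold lower. The fall in MDA-MB-468 ranked 6 among all genes of that line, and the one in BT-549 ranked 91. The difference of the falls was 0.94 (SE 0.14).

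The falls of MAN2A1 were of nearly equal size in the lines. Its signals (ILMN_2147435, NM_002372) were 9.20, 9.29 and 9.78 in BT-549 siPRKCD cells, against 10.66, 10.59 and 10.46 in siControl cells. In MDA-MB-468, they were 8.24, 8.10 and 8.44 in siPRKCD cells and 9.44, 9.33 and 9.30 in siControl cells. The third siPRKCD array was the highest of its group in both lines, and it was the least separated from the siControl arrays in BT-549. The log2 fold change of MAN2A1 was -1.14 in BT-549 (SE 0.13), with 45.3% left, and -1.10 in MDA-MB-468 (SE 0.13), with 46.8% left, a difference of -0.05 (SE 0.19).

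DRAM1 had the largest fall of the 6 genes in BT-549. Its only probe (ILMN_1669376, NM_018370) had signals of 8.47, 8.65 and 8.57 in BT-549 siPRKCD cells and 9.95, 10.06 and 9.79 in siControl cells. In MDA-MB-468, they were 7.20, 7.15 and 6.98 in siPRKCD cells and 8.43, 8.39 and 8.09 in siControl cells. The log2 fold change of DRAM1 was -1.37 in BT-549 (SE 0.11), with 38.7% left, and -1.19 in MDA-MB-468 (SE 0.11), with 43.7% left, a difference of -0.17 (SE 0.15). With neqc the falls of DRAM1 were -1.60 in BT-549 cells and -2.10 in MDA-MB-468 cells, a difference of 0.50, so the line with the larger fall depended on the background correction.

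PLEKHA1, AKTIP, PLEKHA2 and SLC30A9 had the larger fall in MDA-MB-468 with quantile normalisation, median centring and neqc, while for MAN2A1 and DRAM1 the sign of the difference turned with neqc. The order of the differences depended on the background correction as well, and with neqc they were 1.24 for PLEKHA1, 0.93 for PLEKHA2, 0.71 for AKTIP, 0.50 for DRAM1, 0.33 for SLC30A9 and 0.11 for MAN2A1. Ranked by the smaller of its 2 falls among the 650 genes called lower in both lines, DRAM1 was at 7, MAN2A1 at 10, AKTIP at 13, PLEKHA2 at 17, SLC30A9 at 37 and PLEKHA1 at 215, and PRKCD itself was at 40. PLEKHA1 thus stood apart from the other 5 genes by its smaller fall in BT-549. The differences of the falls between the lines were not tested for the 6 genes, since both comparisons chose them, and of all genes 10.8% were called for this difference.

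**Figure D2:**
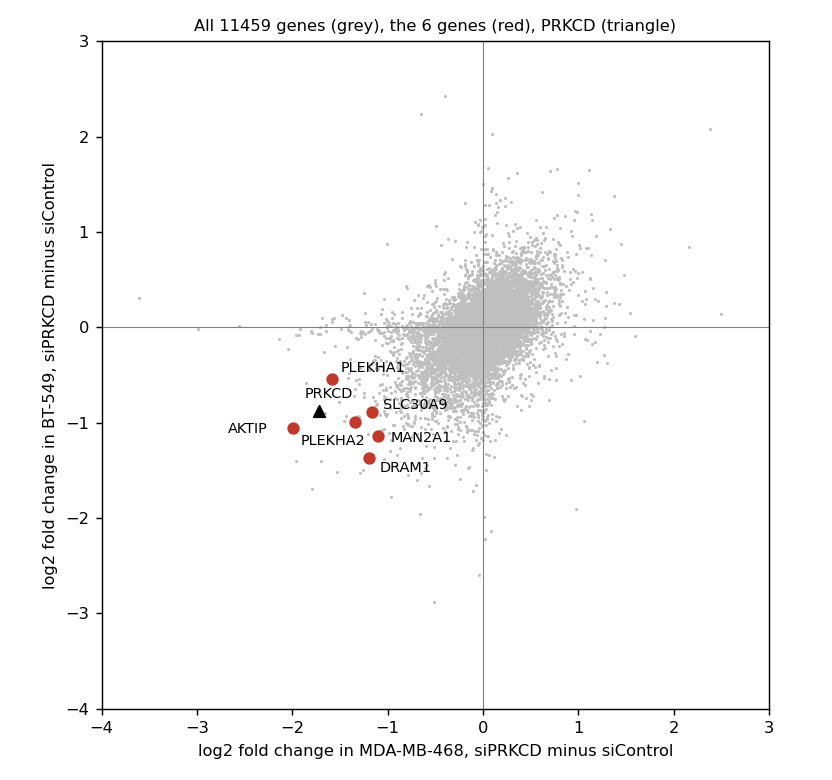
Log2 fold change of siPRKCD minus siControl in BT-549 (vertical axis) against that in MDA-MB-468 (horizontal axis) for all 11459 genes (grey points), with the 6 genes in red and PRKCD as a black triangle. AKTIP lies farthest to the left of the 6 at -1.99 in MDA-MB-468, DRAM1 lowest at -1.37 in BT-549, and PLEKHA1 nearest to the horizontal zero line at -0.55.

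Probes of one gene were set side by side by their falls. The pair of PLEKHA1 probes disagreed in size. The dimmer one (ILMN_2394250, annotated to NM_021622) had signals of 8.18, 8.11 and 8.31 in BT-549 siPRKCD cells, against 8.48, 8.21 and 8.47 in siControl cells, and these groups overlapped. In MDA-MB-468, it had 8.01, 8.11 and 8.09 in siPRKCD cells and 8.72, 9.02 and 8.91 in siControl cells, with no overlap. Its log2 fold changes were -0.18 in BT-549 (SE 0.10) and -0.82 in MDA-MB-468 (SE 0.10). The change of the brighter probe minus that of the dimmer one was -0.36 in BT-549 cells and -0.77 in MDA-MB-468 cells. On both probes the fall was larger in MDA-MB-468.

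The AKTIP probes were closer to each other than the PLEKHA1 probes in MDA-MB-468, but not in BT-549. The change of the brighter AKTIP probe minus that of the dimmer one was -0.43 in BT-549 cells and -0.24 in MDA-MB-468 cells. The dimmer one (ILMN_1665982, NM_022476) had signals of 6.86, 7.05 and 7.02 in BT-549 siPRKCD cells, where 2 of 3 arrays detected it, against 7.61, 7.62 and 7.58 in siControl cells. In MDA-MB-468, it had 7.70, 7.54 and 7.83 in siPRKCD cells and 9.41, 9.52 and 9.42 in siControl cells. The groups did not overlap on either probe in either line. The log2 fold changes of the dimmer probe were -0.63 in BT-549 (SE 0.09) and -1.76 in MDA-MB-468 (SE 0.09), a difference between the lines of 1.13, beside 0.94 on the brighter probe.

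PLEKHA2 has 4 probes, and only one of them carried the fall. The probe ILMN_1789138 had signals of 7.03, 7.04 and 7.12 in BT-549 siPRKCD cells and 7.09, 7.24 and 7.05 in siControl cells, which overlap, and its difference was -0.06 (SE 0.09). In MDA-MB-468 it was detected on 0 of 6 arrays. The probes ILMN_1768681 and ILMN_1715589 were detected on 0 of 12 arrays, as was the second MAN2A1 probe, ILMN_2147440. Averaged over its kept probes, the log2 fold change of PLEKHA2 was -0.53 in BT-549 cells and -0.72 in MDA-MB-468 cells. The falls of SLC30A9 and DRAM1 rest on 1 probe each, and those of PLEKHA2 and MAN2A1 on 1 responding probe each. The probe sequences were not used here, so which transcripts each probe reads was not examined beyond the annotated name.

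**Figure D3:**
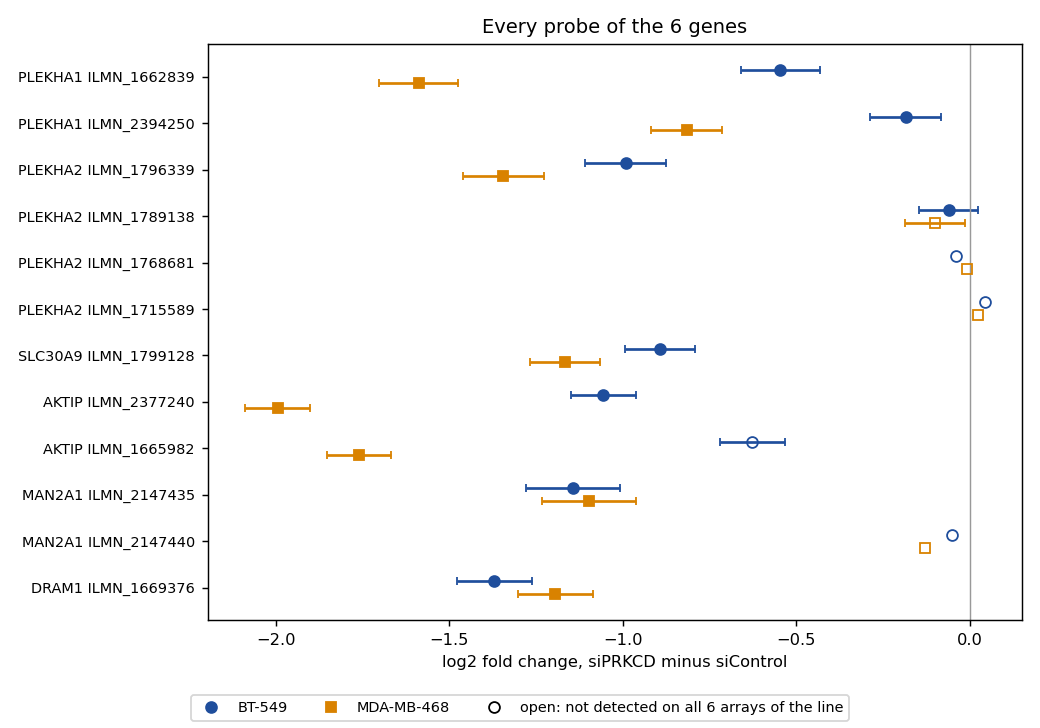
Log2 fold change of siPRKCD minus siControl (horizontal axis) for each of the 12 probes of the 6 genes, in BT-549 (blue circles) and MDA-MB-468 (orange squares). Bars are the SE of the limma fit and are given for the 9 probes that passed the detection filter; open symbols were not detected on all 6 arrays of that line. The PLEKHA1 and AKTIP pairs both lie left of zero, while the dim PLEKHA2 and MAN2A1 probes lie close to it.

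The level of the genes without PKCδ siRNA differed between the lines, in a comparison that the choice of the genes did not use, although it shares the siControl arrays with both siPRKCD comparisons. The added insulin in the BT-549 medium cannot be told apart from the line here. PLEKHA2, DRAM1 and MAN2A1 were higher in BT-549 than in MDA-MB-468, AKTIP and PLEKHA1 were lower, and SLC30A9 was not called. Of all genes, 62.3% were called in this comparison (32.6% higher and 29.7% lower in BT-549), so the 5 of 6 called here is set against a high background. PLEKHA2 averaged 10.56 in BT-549 siControl cells and 8.76 in MDA-MB-468 siControl cells, 3.47-fold higher in BT-549 (log2 difference 1.79, SE 0.12, limma adjusted p = 1.1e-09). DRAM1 averaged 9.93 in BT-549 cells and 8.30 in MDA-MB-468 cells, 3.09-fold higher (adjusted p = 1.5e-09). MAN2A1 averaged 10.57 in BT-549 cells and 9.35 in MDA-MB-468 cells, 2.32-fold higher (adjusted p = 7.4e-07). For PLEKHA2 and DRAM1, every BT-549 array with siPRKCD was still above every MDA-MB-468 siControl array, while for MAN2A1 these groups overlapped. The PLEKHA2 probe ILMN_1789138, not detected in MDA-MB-468, differed by 0.43 (limma adjusted p = 0.00051 over all kept probes, of which 55.9% were called). With the dim group at the higher of its own signal and the lowest detected signal, it was at least 1.16-fold higher in BT-549. This bound was not tested.

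AKTIP averaged 8.71 in BT-549 siControl cells and 10.79 in MDA-MB-468 siControl cells, a difference of -2.08 (SE 0.10, limma adjusted p = 1.4e-11), 4.22-fold lower in BT-549. Its dimmer probe differed by -1.85 (limma adjusted p = 1.7e-10 over all kept probes, of which 55.9% were called). PLEKHA1 averaged 9.46 in BT-549 cells and 9.99 in MDA-MB-468 cells, a difference of -0.53 (SE 0.11, adjusted p = 0.00073), and its dimmer probe differed by -0.50 (adjusted p = 0.00067 over all kept probes). SLC30A9 averaged 10.08 in BT-549 cells and 10.05 in MDA-MB-468 cells, and the 95% interval of its difference ran from -0.19 to 0.25 (adjusted p = 0.81).

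Across the arrays of one line the 6 genes moved together, as their choice implies: the correlation of any 2 of them, averaged over the lines with 6 arrays each, was 0.93 to 0.99. Over all 12 arrays, where the level of the lines enters too, it ran from -0.25 for PLEKHA2 with AKTIP to 0.98 for MAN2A1 with DRAM1. The arrays of a correlation share the 2 treatment groups, so genes that fell have a high value in any case. By the correlation averaged over the lines, the genes nearest to each member were KLHL12 for PLEKHA1 (0.993), SMIM19 for PLEKHA2 (0.990), TBC1D7 for SLC30A9 (0.985), CLDND1 for AKTIP (0.995), PRKAR1A for MAN2A1 (0.989) and PGD for DRAM1 (0.997). PRKAR1A, which encodes a PKA regulatory subunit, was also among the 3 nearest to PLEKHA1, NAB1 was among those of both AKTIP and MAN2A1, and CLDND1 among those of both AKTIP and DRAM1. Over all 12 arrays the nearest genes were TMEM45A for PLEKHA1 (0.979), OPA1 for PLEKHA2 (0.995), TMEM30A for SLC30A9 (0.969), RAB4A for AKTIP (0.984), LAMB2 for MAN2A1 (0.987) and CGGBP1 for DRAM1 (0.983), with PIK3R1 next for DRAM1 (0.983).

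Genes known to work beside the 6 were followed in 12 lists, of which 118 genes could be tested, to see whether the systems around the genes moved as well. Taken as one, 29 of 118 were called lower and 9 higher in BT-549, with 22 lower and 15 higher among the MDA-MB-468 arrays, at a limma adjusted p under 0.05. The share called lower was 24.6% in BT-549 cells and 18.6% in MDA-MB-468 cells, beside 14.9% and 13.7% of all genes, and the median log2 fold changes were -0.10 and -0.05, beside -0.009 and 0.003. The lists were chosen with earlier results of these data known, so the shares are a description and were not tested. Of all genes, 11.6% were called higher in BT-549 cells and 12.4% in MDA-MB-468 cells. In both lines, 15 relatives were called lower and 4 higher. Since same-numbered MDA-MB-468 arrays deviated together, calls in that line were also taken with the replicate number as a block. All 37 calls in MDA-MB-468 kept their direction with the block and 13 were added, 6 lower and 7 higher, which are given below where they alter a statement. The count lower in MDA-MB-468 was 14 without the second siPRKCD array of that line and 9 with median centring in place of quantile normalisation. With median centring, lower calls made up 78.2% of all calls in BT-549 (1398 lower and 390 higher), against 56.3% with quantile normalisation, and 876 genes were called higher in BT-549 without its first siControl array, against 1325 with it.

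**Figure D4:**
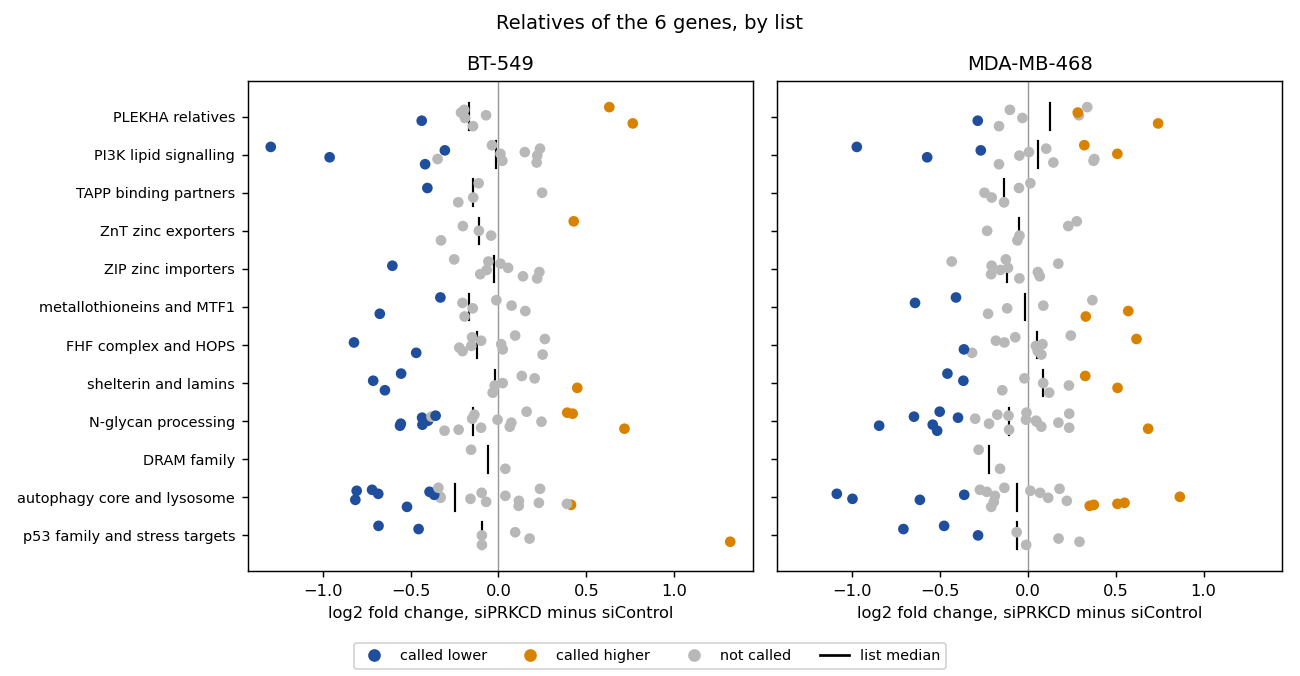
Log2 fold change of siPRKCD minus siControl (horizontal axis) of the 118 tested relatives, by list, in BT-549 (left) and MDA-MB-468 (right). Each point is a gene (blue called lower, orange called higher, grey not called at a limma adjusted p of 0.05), and black ticks are list medians. Points lie on both sides of zero in most lists, and the lowest in BT-549 is PIK3R1 at -1.30.

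Around the TAPP adaptors, pleckstrin homology relatives moved in both directions. Of 8 relatives tested, 1 was lower and 2 were higher in each line, with medians of -0.17 in BT-549 cells and 0.13 in MDA-MB-468 cells, and with the replicate block 4 were higher in MDA-MB-468. PLEKHA3 (FAPP1), which binds a phosphoinositide of the Golgi, rose in both lines, by 0.76 in BT-549 (SE 0.12, adjusted p = 0.00020) and 0.74 in MDA-MB-468 (SE 0.12, adjusted p = 0.00025). PLEKHB2 rose by 0.63 in BT-549 (adjusted p = 0.0023) and was at 0.34 in MDA-MB-468 (adjusted p = 0.073, and 0.035 with the replicate block). PLEKHA4 fell by 0.44 in BT-549 (adjusted p = 0.0033) and fell by 0.28 in MDA-MB-468 (adjusted p = 0.040), where the call was lost with median centring and without 5 of the arrays of the line in turn (adjusted p 0.023 to 0.15 over the alternatives). PLEKHA7, a junction protein, rose by 0.28 in MDA-MB-468 (adjusted p = 0.034), a call also lost with median centring and without 5 of the arrays in turn (0.022 to 0.13 over the alternatives). PLEKHA8 was not among the genes tested.

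The PI3-kinase list moved by single genes. Of 12 tested, 4 were called in BT-549, all lower, while MDA-MB-468 had 3 lower and 2 higher (4 higher with the replicate block), with medians of -0.01 and 0.06. PIK3R1, the p85 alpha regulatory subunit of PI3-kinase, averaged 8.43 in BT-549 siPRKCD cells and 9.73 in siControl cells, and 7.17 in MDA-MB-468 siPRKCD cells and 8.15 in siControl cells. It fell by 1.30 in BT-549 (SE 0.13, adjusted p = 7.9e-06) and fell by 0.97 in MDA-MB-468 (SE 0.13, adjusted p = 8.1e-05), and with the mean of its probes the changes were -0.58 and -0.52. PDPK1, the kinase that activates AKT at the membrane, fell by 0.96 in BT-549 (SE 0.12, adjusted p = 4.1e-05) and fell by 0.57 in MDA-MB-468 (adjusted p = 0.0024), and with the mean of its probes the changes were -0.65 and -0.37. PIK3C2B was called lower at -0.30 and -0.27 (adjusted p = 0.014 and 0.029), and both calls were lost with median centring, with a highest adjusted p over the alternatives of 0.076 in BT-549 and one of 0.19 in MDA-MB-468. PHLPP2, a phosphatase that acts on AKT, rose by 0.51 in MDA-MB-468 (adjusted p = 0.0034) and was at 0.01 in BT-549. Of 5 scaffold partners of the TAPP proteins, SNTB2 alone was called, at -0.40 in BT-549 (adjusted p = 0.028), a call lost without single arrays and with the mean of its probes (0.0038 to 0.39 over the alternatives).

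Most zinc genes beside SLC30A9 were not called. Of 5 other ZnT transporters, SLC30A7 alone was called, higher by 0.43 in BT-549 (adjusted p = 0.018), a call lost with median centring (0.0045 to 0.25 over the alternatives). SLC30A1, SLC30A5 and SLC30A6 were at -0.33, -0.11 and -0.20 in BT-549 and at -0.06, -0.23 and 0.23 in MDA-MB-468, with adjusted p of 0.077 to 0.80, and SLC30A5 was called lower in MDA-MB-468 with the replicate block (adjusted p = 0.047). Of 10 ZIP importers, SLC39A6 alone was called, and it fell by 0.60 in BT-549 (SE 0.11, adjusted p = 0.00092) and was at -0.21 in MDA-MB-468 (adjusted p = 0.20). With the replicate block SLC39A8 was called too, at -0.43 in MDA-MB-468 (adjusted p = 0.0039, against 0.052 without it). Metallothioneins, which bind zinc and are induced by the zinc sensor MTF1, were divided. Of 8 genes with MTF1, 2 were called in BT-549, both lower. MDA-MB-468 had 2 lower and 2 higher (3 higher with the replicate block). MT1F fell by 0.68 in BT-549 (adjusted p = 0.0016), MT1X fell by 0.64 in MDA-MB-468 (adjusted p = 0.0012), and MT1G rose by 0.57 in MDA-MB-468 (adjusted p = 0.019, and 0.00023 to 0.096 over the alternatives). MTF1 itself was called lower, at -0.33 in BT-549 (adjusted p = 0.042) and -0.41 in MDA-MB-468 (adjusted p = 0.015), and median centring ended both calls (highest adjusted p over the alternatives 0.19 and 0.14). The metallothioneins are near-identical in sequence, so their probes may read more than one of them.

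Most partners of AKTIP in the FTS-Hook-FHIP complex were not called. Of the complex and the HOPS tethering proteins it works with, 12 genes were tested, and 2 were lower in BT-549, while 1 was lower and 1 higher in MDA-MB-468 (2 and 2 with the replicate block). HOOK1 was not detected in BT-549 and fell by 0.36 in MDA-MB-468 (adjusted p = 0.013), where median centring and leaving out the second siPRKCD or the second siControl array ended the call (0.0031 to 0.22 over the alternatives). HOOK2, HOOK3 and FHIP1B were at -0.22, -0.15 and 0.25 in BT-549 and at 0.06, 0.05 and 0.08 in MDA-MB-468, none of them called. FHIP2A was called lower at -0.47 in BT-549 (adjusted p = 0.023, and 0.0024 to 0.11 over the alternatives) and was at -0.32 in MDA-MB-468 (adjusted p = 0.12, and 0.027 with the replicate block). Among the HOPS proteins, VPS16 fell by 0.82 in BT-549 (SE 0.15, adjusted p = 0.00076) and VPS33A rose by 0.62 in MDA-MB-468 (SE 0.11, adjusted p = 0.00087). AKTIP is also known to bind telomeres and lamins, and of 9 shelterin and lamin genes 3 were lower and 1 higher in BT-549, while MDA-MB-468 had 2 lower and 2 higher. TERF1, a telomere repeat binding protein, fell by 0.71 in BT-549 (adjusted p = 0.00064, and up to 0.073 over the alternatives) and was called lower at -0.37 in MDA-MB-468 (adjusted p = 0.042, and up to 0.49). LMNA fell by 0.65 in BT-549 (adjusted p = 0.0039), and LMNB1 was higher by 0.45 in BT-549 cells and 0.51 in MDA-MB-468 cells (adjusted p = 0.021 and 0.010), with calls lost without single arrays and, in BT-549, with median centring (highest adjusted p 0.15 and 0.059). TINF2 was called lower at -0.55 and -0.46 (adjusted p = 0.017 and 0.044), and these calls too were lost without single arrays (highest adjusted p 0.072 and 0.18 over the alternatives).

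Of the N-glycan path around MAN2A1, 3 genes fell in both lines, the Golgi mannosidases MAN1A1 and MAN1A2 and the gene MGAT2. Of 20 genes, 6 were lower and 3 higher in BT-549, with a median of -0.14. MDA-MB-468 had 6 lower (7 with the replicate block) and 1 higher, with a median of -0.11. MAN1A1, which acts before MAN2A1, fell by 0.56 in BT-549 (SE 0.12, adjusted p = 0.0023) and fell by 0.85 in MDA-MB-468 (SE 0.12, adjusted p = 8.6e-05). MAN1A2, of the same step, fell by 0.43 in BT-549 (SE 0.11, adjusted p = 0.0069) and fell by 0.54 in MDA-MB-468 (SE 0.11, adjusted p = 0.0015). MGAT2 was called lower at -0.43 in BT-549 (adjusted p = 0.0064) and -0.40 in MDA-MB-468 (adjusted p = 0.011). B4GALT3, a galactosyltransferase that acts later, rose by 0.72 in BT-549 (SE 0.09, adjusted p = 5.7e-05) and 0.69 in MDA-MB-468 (SE 0.09, adjusted p = 7.5e-05). MAN2A2, the close relative of MAN2A1, was detected on 1 of 3 siPRKCD and 0 of 3 siControl arrays of BT-549 and was not called in either line. The sialyltransferase ST6GAL1, not detected in BT-549, was called lower at -0.50 in MDA-MB-468 (adjusted p = 0.0018, and 0.00045 to 0.060 over the alternatives).

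Around DRAM1, genes of autophagy moved in both directions, while the lysosome genes that were called were all lower. DRAM2, the relative of DRAM1 in the same membrane family, was at 0.04 in BT-549 cells and -0.16 in MDA-MB-468 cells and was not called. In BT-549, 7 of the 20 autophagy and lysosome genes tested were lower and 1 was higher, with a median of -0.24. MDA-MB-468 had 4 lower (5 with the replicate block) and 5 higher, with a median of -0.06. The 3 called lower in both lines were LAMP1, LAMP2 and CTSB, and ULK1 joined them with the replicate block in MDA-MB-468 (limma adjusted p = 0.034). LAMP1 was at -0.37 in BT-549 cells and -0.36 in MDA-MB-468 cells (adjusted p = 0.035 and 0.038). CTSB was at -0.81 in BT-549 cells and -0.61 in MDA-MB-468 cells (adjusted p = 0.00082 and 0.0062). LAMP2, a lysosomal membrane glycoprotein, fell by 0.68 in BT-549 (SE 0.12, adjusted p = 0.00078) and fell by 1.09 in MDA-MB-468 (SE 0.12, adjusted p = 1.4e-05), and with the mean of its probes the changes were -0.12 (adjusted p = 0.35, the highest over the alternatives) and -0.36. ATG12, of the conjugation system of the autophagosome, fell by 0.52 in BT-549 (adjusted p = 0.00073) and was at -0.21 in MDA-MB-468 (adjusted p = 0.12). CTSD, the protease cathepsin D, fell by 0.997 in MDA-MB-468 (SE 0.14, adjusted p = 7.0e-05), and GABARAPL1, an autophagosome protein, rose by 0.87 there (SE 0.13, adjusted p = 0.00014). Of 7 genes of the p53 family and its stress targets, 2 were lower and 1 higher in BT-549, while all 3 calls in MDA-MB-468 were lower. TP53INP1 fell by 0.68 in BT-549 (SE 0.09, adjusted p = 6.9e-05) and fell by 0.48 in MDA-MB-468 (adjusted p = 0.0012), and TP53I3 fell by 0.45 in BT-549 (adjusted p = 0.0067) and fell by 0.71 in MDA-MB-468 (adjusted p = 0.00024). SESN1 was called lower at -0.28 in MDA-MB-468 (adjusted p = 0.027, and 0.0086 to 0.13 over the alternatives). CDKN1A, which encodes the cell cycle inhibitor p21, rose by 1.32 in BT-549 (SE 0.18, adjusted p = 9.3e-05) and was at 0.29 in MDA-MB-468 (adjusted p = 0.27), where it was called higher with the replicate block (adjusted p = 0.034).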

How the data were processed

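Total RNA of 12 samples was labelled and hybridised to Illumina Human HT-12 v4 arrays. The authors deposited bead signal intensity values before normalization, with a detection p-value per probe and array that was deposited beside each signal, and a table of normalized intensity values, made by what their methods call quantal normalization. The scanner software is not given in the sources used here. When the signals before normalization were quantile-normalized, no log2 value lay more than 0.0083 from that table.

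The intensities were quantile-normalized and taken to log2 without background correction, which makes fold changes of dim probes smaller. Probes were kept with a detection p under 0.01 on at least 3 of 12 arrays (19439 of 47323), and the kept probe of highest mean stood for each gene. Of the probes, 30113 had 1 gene symbol, 8 several and 17202 none. One model of the 4 group means was fitted in R 4.3.3 with limma 3.58.1 (8 residual and 7.64 prior degrees of freedom), and a gene was called below an adjusted p of 0.05 (Benjamini-Hochberg, 11459 genes). An exact test of 3 against 3 arrays cannot go below 0.1. Arrays correlated at 0.987 to 0.997 within groups, and 15616 to 17724 probes were detected per array. Their number limits the precision.

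The 6 genes and the lists were chosen with earlier results of these data known. Named were PRKCD, the members with all probes, up to 4 called genes of smallest adjusted p per list, close family members, and the 3 genes of highest correlation to each member. Some further relatives, such as LAMP1, CTSB, MGAT2, SQSTM1 and MT1E, were named outside this rule. Of the alternatives, only the block was read for these. The alternatives were median centring, neqc background correction (offset 16), the authors' table, other filters on dim probes, the mean of a gene's probes, a replicate block, the 6 arrays of a line alone and each array left out. The replicate numbers come from the sample titles, and whether they pair arrays was judged by the correlation of same-numbered siPRKCD and siControl arrays in their deviations from the group means. It was 0.33 to 0.54 for the 3 pairs of MDA-MB-468, which were taken as pairs, and -0.04 to 0.30 in BT-549, which were not. The model without the block was kept. The blocked value is given where it changed a list count above or the call of a named relative in MDA-MB-468. The script was tested on simulated data.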

Additional observations from a re-analysis of the deposited data

Results flagged for a closer look

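By limma's interaction, BT-549 minus MDA-MB-468, a difference of the siPRKCD effect was called for 6 of the relatives named above. For ST6GAL1 among them, not detected in BT-549, the call cannot show a different response. Of all genes, 10.8% were called. Most of these relatives were named for a small adjusted p in either line, so the count of 6 cannot be read against that share. Of the other relatives tested, SQSTM1 and MT1E were called (adjusted p = 0.018 and 0.049). SQSTM1 was at -0.81 in BT-549 cells and 0.01 in MDA-MB-468 cells. For the 6 chosen genes this difference was not tested, since both comparisons chose them, and groups of 3 arrays were not screened for single arrays that stand apart. With the replicate block in each line the 6 differences were called too, as were those of PDPK1, PHLPP2 and MT1G (adjusted p = 0.048, 0.019 and 0.037). CDKN1A differed by 1.02 (adjusted p = 0.019), with 1.32 in BT-549 cells and 0.29 in MDA-MB-468 cells. CTSD differed by 0.84 (adjusted p = 0.010), with -0.16 in BT-549 cells and -0.997 in MDA-MB-468 cells. GABARAPL1 differed by -1.20 (adjusted p = 0.00058), with -0.33 in BT-549 cells and 0.87 in MDA-MB-468 cells. VPS16 differed by -0.69 (adjusted p = 0.046), with -0.82 in BT-549 cells and -0.13 in MDA-MB-468 cells. PLEKHA7 differed by -0.50 (adjusted p = 0.024), with -0.21 in BT-549, where 0 of 3 siPRKCD arrays detected it, and 0.28 in MDA-MB-468. ST6GAL1 differed by 0.66 (adjusted p = 0.0075), with 0.16 in BT-549, where no array detected it, and -0.50 in MDA-MB-468. It passed the detection filter through MDA-MB-468 only, and a fall in BT-549 could not have been seen.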

How the results depend on the processing

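The falls of the 6 genes kept their direction under every alternative run, and the baseline calls of 5 of the 6 genes were kept (highest adjusted p 0.022, for PLEKHA1), with SLC30A9 not called (adjusted p 0.74 to 0.93). The median fall moved with neqc to -1.16 in BT-549 cells and -1.94 in MDA-MB-468 cells, and with the mean of all kept probes to -0.87 and -1.18. Median centring called 814 genes lower in MDA-MB-468 (main 1567), and of the relatives 9 lower and 7 higher in MDA-MB-468 and 4 higher in BT-549. It gave 390 genes higher in BT-549 cells and 647 in MDA-MB-468 cells (main 1325 and 1424). The cause was not tested. The fit over all kept probes, added after seeing the data, called 10874 probes at baseline (main 7138 genes), over 19439 probes in place of 11459 genes. Leaving out each array in turn gave medians of -1.12 to -0.97 in BT-549 cells and -1.31 to -1.25 in MDA-MB-468 cells, 1214 to 1807 genes lower in BT-549, 1189 to 1653 lower in MDA-MB-468 and 6566 to 7284 at baseline. Of the relatives it gave 22 to 32 lower and 6 to 11 higher in BT-549, and 14 to 23 lower and 10 to 16 higher in MDA-MB-468.

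Of the siPRKCD arrays, 3 of 3 in MDA-MB-468 and 2 of 3 in BT-549 correlated best with the siControl array of their own number. With the replicate number as a block within each line, 2058 genes were lower in BT-549 cells and 1886 in MDA-MB-468 cells, and of the relatives 35 were lower and 11 higher in BT-549 and 28 lower and 22 higher in MDA-MB-468. In BT-549, where the numbers were not taken as pairs, this added 8 calls to 38. Beyond the calls named, the block changed no call of a named relative in MDA-MB-468. Signal over background limits the dim probes, such as PRKCD in BT-549 and DRAM1 in MDA-MB-468.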
